A study of Mus musculus with 43 samples.

Results

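Imprinted genes are transcribed mainly from the allele inherited from one parent. Of 40 imprinted mouse genes followed here, 37 had a probe set of their own on the array, among 18184 genes with one. They were found by gene symbol in the probe annotation, and each was read on its brightest probe set, judged by the average of the 43 arrays. By textbook knowledge the paternal allele is expressed for 18 of the 37 and the maternal allele for 19. Slc22a3 and Dio3 had no probe set in the annotation, and H19 was listed only together with Mir675, the microRNA inside its transcript. That Mir675/H19 probe set, and a probe set listed for both Snurf and Snrpn, are reported beside the 37 and enter no count. Snrpn's own probe set was dim.

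Gonads of single mice without annexa, 43 in 15 groups, had been hybridized to Affymetrix MOE430 v.2 arrays. There were 3 arrays a group and 2 in each E15 group. E13 ovaries were Foxl2-/- or control, where the label of the control reads Foxl2+/- and the study's methods describe wild-type littermates. E16 ovaries were wild-type, Foxl2+/- or Foxl2-/-. E15 ovaries were Wnt4-null or Wnt4+/- and came from a C57BL/6J and 129 mixture, while CD1, NIH-Swiss/BC and C57BL/6J were mixed in the others. P0 ovaries, from the day of birth, were wild-type, Foxl2-/-, homozygous for the hypomorphic Wv allele of Kit, Wnt4-/-, or doubly mutant for Foxl2 and either Kit or Wnt4. The Kit and the Wnt4 single mutants of P0 carried 1 null allele of Foxl2, so their comparison with wild-type ovaries included that allele. Testes were of E13 and P0, and by the methods the P0 testes were from Wnt4-null mice with partly defective differentiation. Foxl2 and Wnt4 are a transcription factor and a signalling ligand needed by the ovary, and Kit is a receptor on which germ cells depend.

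Imprints are marks of DNA methylation that are erased and rewritten in the germ line. In somatic cells an imprinting control region keeps a cluster of neighbouring genes in opposite parental states, such as Dlk1 and Dio3 against Meg3, Igf2 against H19, or Kcnq1ot1 against Kcnq1, Cdkn1c and Phlda2. Many of the genes regulate fetal and placental growth. The array measured the summed RNA of both alleles, so no value here tells which allele was read.

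Promoters of 33 of the 40 genes were in the RefSeq table of GRCm38.p6 (mm10), each as a window of 300 bases, 250 before and 50 after an annotated start. Peg10, Kcnq1, Cdkn1c, H19, Sgce, Dcn and Impact had no window there. CpG dinucleotides, the letters that carry DNA methylation, are in capitals in the following 4, which belong to genes on which the results turn. Where a gene had several windows, the one with most CpG is shown. The windows lie on chr7:143502475-143502774 on the minus strand (Phlda2), chr12:109452573-109452872 on the plus strand (Dlk1), chr12:109540746-109541045 on the plus strand (Meg3) and chr7:6730370-6730669 on the minus strand (Peg3), and each is written 5′ to 3′ along its gene.
Phlda2: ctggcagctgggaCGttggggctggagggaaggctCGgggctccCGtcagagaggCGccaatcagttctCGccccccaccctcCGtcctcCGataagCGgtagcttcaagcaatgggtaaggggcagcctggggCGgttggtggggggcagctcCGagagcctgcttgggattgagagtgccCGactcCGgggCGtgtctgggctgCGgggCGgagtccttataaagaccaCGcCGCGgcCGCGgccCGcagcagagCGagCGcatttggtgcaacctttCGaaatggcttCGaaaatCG
Dlk1: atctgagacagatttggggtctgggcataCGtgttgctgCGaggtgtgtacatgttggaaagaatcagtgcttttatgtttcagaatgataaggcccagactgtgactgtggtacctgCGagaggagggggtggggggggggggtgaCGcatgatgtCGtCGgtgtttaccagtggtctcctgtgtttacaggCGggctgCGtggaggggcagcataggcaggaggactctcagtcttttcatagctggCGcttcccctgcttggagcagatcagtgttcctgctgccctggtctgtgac
Meg3: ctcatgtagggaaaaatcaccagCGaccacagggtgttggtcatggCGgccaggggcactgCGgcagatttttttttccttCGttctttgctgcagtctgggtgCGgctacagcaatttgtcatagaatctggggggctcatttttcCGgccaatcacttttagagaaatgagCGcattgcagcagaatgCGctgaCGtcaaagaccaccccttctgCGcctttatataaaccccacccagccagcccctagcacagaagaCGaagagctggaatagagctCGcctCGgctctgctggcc
Peg3: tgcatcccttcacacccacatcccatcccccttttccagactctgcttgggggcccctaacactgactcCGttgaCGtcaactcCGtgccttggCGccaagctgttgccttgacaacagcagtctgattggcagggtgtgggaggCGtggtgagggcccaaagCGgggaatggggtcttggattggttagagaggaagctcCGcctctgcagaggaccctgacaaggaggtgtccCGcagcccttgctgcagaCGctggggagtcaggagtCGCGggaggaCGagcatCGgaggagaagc

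The Phlda2 window holds 26 CpG and that of Dlk1 9, with 13 each in those of Meg3 and Peg3. The median over the members, taking the richest window of each, was 17, against 8 over all 27025 genes with a window. The Peg3 window overlaps that of Usp29, the neighbouring gene on the other strand, by 263 bases. A forkhead 7-mer, GTAAACA or TGTTTAC on the strand shown, occurred in a window of 3 members, Dlk1, Mkrn3 and Nap1l5, which is 9.09% of the members against 4.05% of all genes. Both percentages are of genes with a window, and Peg10, which had none, was not searched. These counts describe letters and not binding sites.

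Signals are given as multiples of the mean of an array, which was the same on all arrays. Changes are differences of log2(signal + 0.01) between group means with their standard error, tested with limma in 1 fit of all 43 arrays and called at a Benjamini-Hochberg adjusted p under 0.05 over all probe sets. In 30 of the 37 genes the highest group mean was above the signal of the median probe set, 0.256, and in the other 7, which are Snrpn, Mkrn3, Rasgrf1, Ascl2, Slc22a18, Calcr and Tfpi2, it was below. Foxl2 read 5.31 to 16.8 in wild-type or control ovaries outside E15, 0.606 to 2.77 in Foxl2 single nulls and at most 0.214 in testes, and Wnt4 read 0.358 to 0.414 and 0.200 to 0.306 in the Wnt4-null ovaries of E15 and P0, against 1.01 to 1.31 and 0.581 to 0.745 in their controls. Germ cell markers, summed over 7 genes, read 39.1 to 70.1 in P0 wild-type ovaries, 2.01 to 8.70 in Kit mutant and 8.72 to 17.6 in Wnt4-null ovaries. The P0 wild-type array numbered 2 is named below beside the calls of members that were lost without it. Comparisons added after the values were seen and the accompanying gene lists were not recomputed without it.

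Of the 37 genes, 29 were called in at least 1 of 14 comparisons between groups, and 8 in none, which were Igf2, Mkrn3, Ube3a, Rasgrf1, Copg2, Calcr, Tfpi2 and Tssc4. The calls were few under loss of Foxl2 and many under loss of Wnt4 at P0, mutation of Kit and the passage to birth, as were the calls over all genes. Loss of Wnt4 at P0 called 14 of the 37, or 37.8%, against 16.9% of all genes, whereas the Kit mutation called 11, or 29.7%, against 30.6%. Paternally and maternally expressed genes were called about as often as each other in both, 7 of 18 and 7 of 19 with Wnt4 and 5 of 18 and 6 of 19 with Kit. Some maternally expressed genes, among them Gnas, Ascl2, Dcn and Cd81 of the Wnt4 calls, are by textbook knowledge imprinted only in certain tissues. Gonads need not be among these tissues, which limits the comparison.

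**Figure D1:**
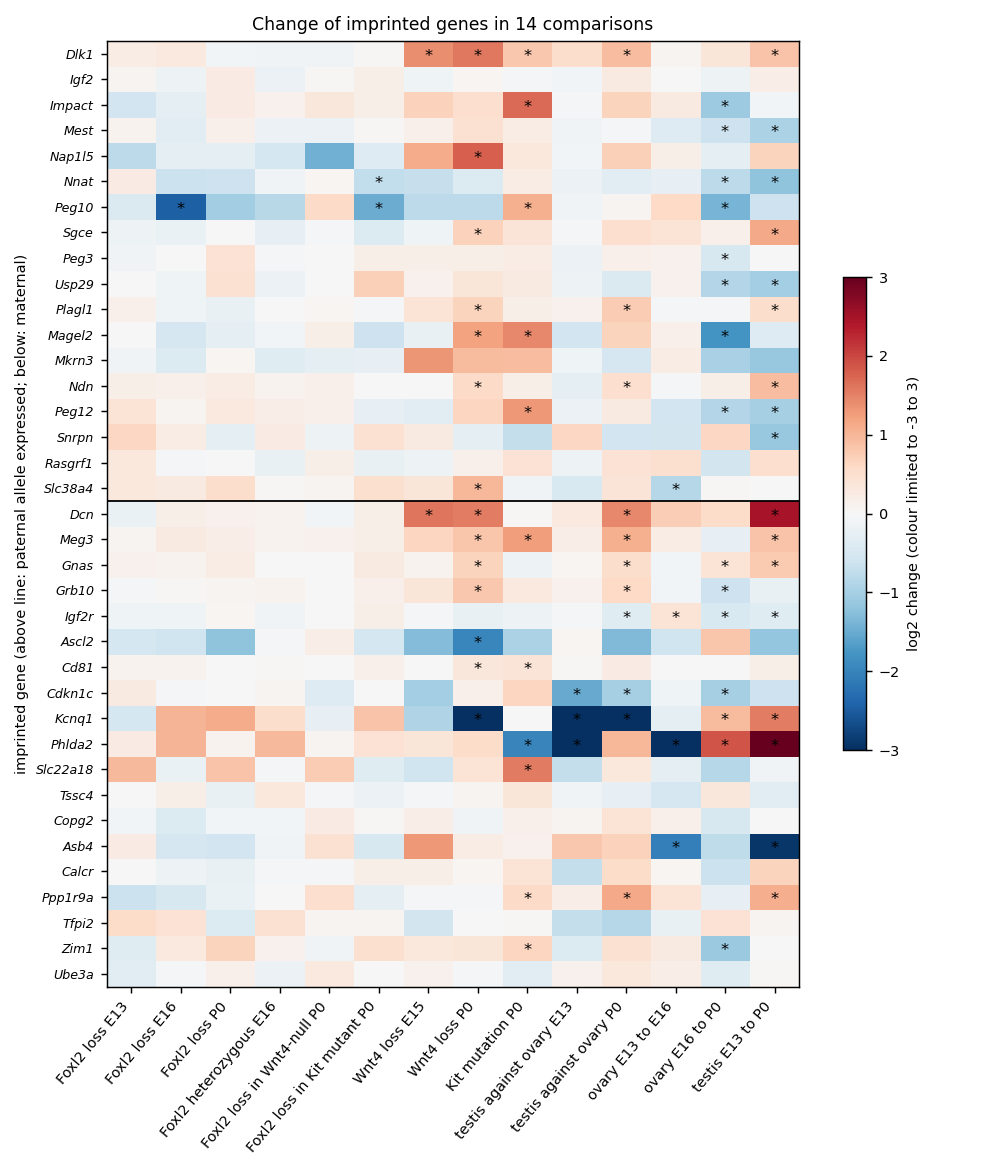
Log2 change of the 37 imprinted genes (vertical axis, paternally expressed above the line and maternally expressed below) in 14 comparisons (horizontal axis). Colour runs from -3 to 3, and larger changes, such as that of Phlda2 in E13 testes (-6.88), have the end colour. A star marks an adjusted p under 0.05. The 6 columns of Foxl2 comparisons on the left hold 3 stars, for Peg10 and Nnat, and the column of Wnt4 loss at P0 holds 14.

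Peg10, a retrotransposon-derived gene expressed from the paternal allele and required for the placenta, fell with loss of Foxl2 at E16. Its signal was 7.32, 5.67 and 5.86 in wild-type ovaries, 3.96, 3.06 and 3.59 in Foxl2+/- ovaries and 1.24, 1.26 and 0.945 in Foxl2-/- ovaries. The 3 genotypes did not overlap, with means of 6.28 ± 0.907, 3.54 ± 0.453 and 1.15 ± 0.178 (SD, n = 3 each). Null against wild-type, Peg10 fell by 2.44 ± 0.34 on the log2 scale, or 5.44-fold (adjusted p = 6.6e-05). It was the 1 member called, where 0.66% of all genes were called and 0.264% fell, and 10 of 37 members were without overlap, against 16.5% of all genes. Fewer cells of a type and less RNA per cell cannot be told apart in whole gonads. Erythroid markers, summed over 4 genes, read 6.84 to 26.4 in the E16 nulls against 1.13 to 1.72 in wild-type ovaries, and germ cell markers 13.3 to 16.8 against 15.4 to 20.1. Erythroid markers read 1.56 to 26.4 in the Foxl2+/- ovaries, where Peg10 was 3.06 to 3.96, and their part in the result was not tested.

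With 1 null allele the fall of Peg10 against wild-type, -0.83 ± 0.34, did not pass the adjustment (adjusted p = 0.81). No member was called in that comparison with limma, 1 had an unadjusted p under 0.05, and 0.0055% of all genes were called. The Foxl2+/- ovaries were above the nulls by 1.62 ± 0.34 (adjusted p = 0.0402), a comparison added after the values were seen, in which 0.132% of all genes were called.

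At E13 Peg10 read 5.72, 3.71 and 3.37 in control and 3.57, 2.57 and 3.11 in Foxl2-null ovaries, which overlapped (-0.44 ± 0.34, adjusted p = 0.51). It was lower in the null array of all 3 same-numbered pairs, and with the pairs as a block the change was -0.44 ± 0.34 (adjusted p = 0.484). At P0 it read 4.30, 0.889 and 3.45 in wild-type and 0.820, 1.04 and 1.74 in null ovaries. The second wild-type array lay among the nulls, and the change of -1.05 ± 0.34 did not pass (adjusted p = 0.22). Without that array it was -1.75 (adjusted p = 0.000397). Averaged over the 3 stages Peg10 fell by 1.31 ± 0.19 (adjusted p = 7.5e-05). By their label the E13 controls were Foxl2+/-, so the average mixes loss against heterozygous and against wild-type ovaries. Differences between E13 and later stages cannot be told apart from this control genotype.

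In the other P0 backgrounds the changes of Peg10 had opposite signs. In Kit mutant ovaries it read 3.76, 6.70 and 4.88, and with Foxl2 also lost 2.82, 1.59 and 1.25, without overlap. That fall was 1.48 ± 0.34 (adjusted p = 0.022) and its call was lost when any of 4 of the 6 arrays was left out (adjusted p of 0.0538 to 0.112). In Wnt4-null ovaries Peg10 read 1.60, 1.48 and 1.10, within the range of the P0 Foxl2 nulls, and in Wnt4 Foxl2 double nulls 2.40, 1.98 and 1.80. The double nulls were all higher, by 0.57 ± 0.34, which did not pass (adjusted p = 0.63). The difference of this effect from that in wild-type background, 1.62 ± 0.48, did not pass either (adjusted p = 0.19), though it was 2.32 without the second P0 wild-type array (adjusted p = 0.0017). The Kit mutants and Wnt4 nulls used as references were already Foxl2+/-, unlike the wild-type ovaries. Background and this allele therefore cannot be told apart. Loss of Wnt4 left Peg10 at 2.98 and 1.99 at E15 against 4.22 and 4.23 in controls (-0.79 ± 0.41, adjusted p = 0.44), and at P0 the change was -0.78 ± 0.34 (adjusted p = 0.14), or -1.48 without the second wild-type array (adjusted p = 0.000484).

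No sex difference of Peg10 passed the test. Testes read 3.91, 4.08 and 3.57 at E13 and 2.20, 2.89 and 2.47 at P0, and both overlapped the ovaries of their stage (-0.11 ± 0.34, adjusted p = 0.93, and 0.08 ± 0.34, adjusted p = 0.88). At P0 the overlap rested on the second wild-type array alone, since both other ovaries read above all of these testes, which were Wnt4-null. Between the stages the testes did not overlap, at a change of -0.62 ± 0.34 that did not pass (adjusted p = 0.22), and neither did that of the ovary from E13 to E16 (0.59 ± 0.34, adjusted p = 0.30).

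**Figure D2:**
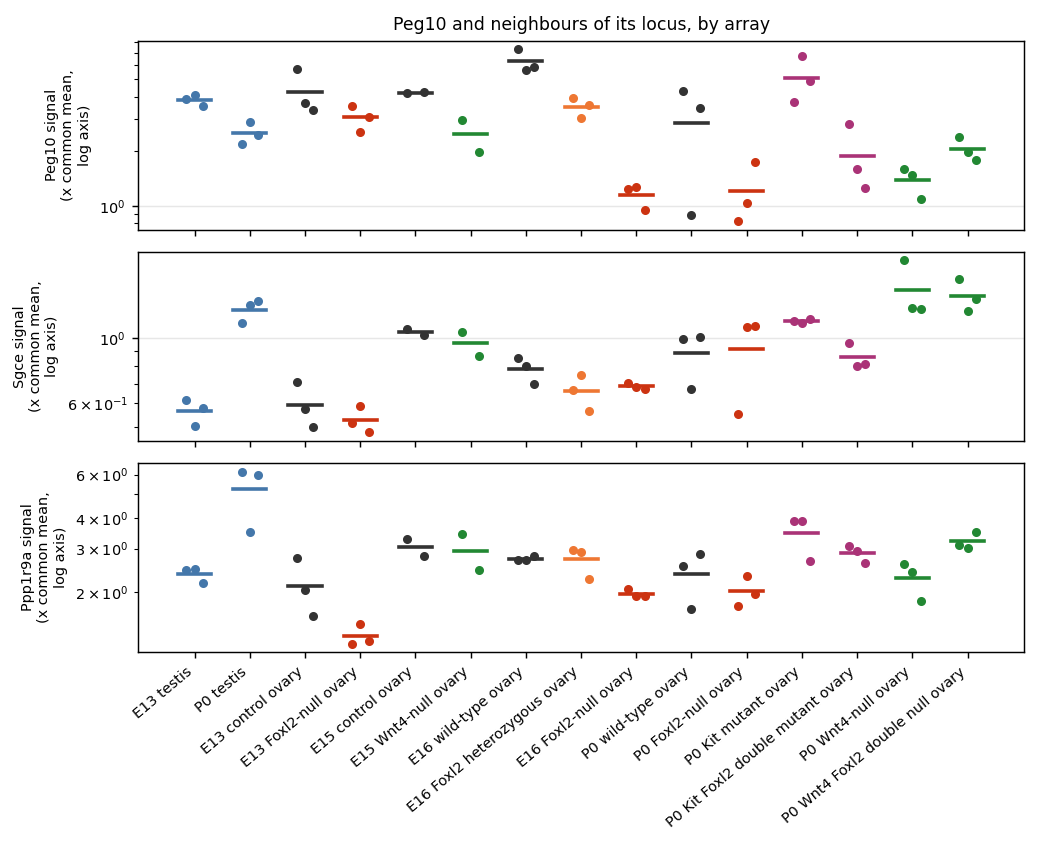
Signal of Peg10, Sgce and Ppp1r9a, neighbours at 1 imprinted locus, in units of the common array mean on log axes. Points are arrays and lines are group means. Peg10 sat at 0.945 to 1.26 in the 3 E16 Foxl2-null ovaries and at 5.67 to 7.32 in the 3 wild-type ones. Sgce overlapped at E16, at 0.670 to 0.701 against 0.695 to 0.858. Ppp1r9a was lower in the E16 nulls without overlap, by a smaller change that was not called (log2 change -0.47).

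No neighbour of Peg10 was called at E16. Sgce, epsilon-sarcoglycan, is transcribed away from Peg10 out of the same imprinting control region, and it changed by -0.19 ± 0.20 at E16 (adjusted p = 0.97). Over the 15 group means Peg10 and Sgce correlated at -0.25. Ppp1r9a, which encodes the actin-binding protein neurabin, read 2.70, 2.70 and 2.80 in wild-type and 2.06, 1.92 and 1.93 in null ovaries of E16, without overlap (-0.47 ± 0.20, adjusted p = 0.63). It fell by 0.44 ± 0.11 over the 3 stages averaged (adjusted p = 0.0374), a call lost under 4 other settings of the processing and when any of 13 of the 18 arrays was left out. All 4 further Ppp1r9a probe sets had the same sign in this average, and 2 of them were called. That comparison called 2 members, Peg10 and Ppp1r9a, and 1.86% of all genes. Asb4, further along the locus, read 0.364, 0.255 and 0.278 in wild-type and 0.242, 0.171 and 0.205 in null ovaries at E16 (-0.51 ± 0.45, adjusted p = 0.96).

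Beyond Peg10, loss of Foxl2 called 0 members with limma at E13 (4 with an unadjusted p under 0.05, 1.4% of all genes called and 0.902% that fell), 0 at P0 (8 with p under 0.05, 0.825% called and 0.577% that fell) and 0 in Wnt4-null ovaries (2 with p under 0.05, 0.924% called). In Kit mutant ovaries 2 members fell, against 1.14% of all genes called and 0.858% that fell. The other was Nnat, neuronatin, a small membrane protein, at 4.56, 4.54 and 3.22 in Kit mutants and 1.99, 2.94 and 2.44 in double mutants (-0.74 ± 0.19, adjusted p = 0.0493). Leaving out any of 4 of the 6 arrays ended the Nnat call (adjusted p of 0.0901 to 0.244). With loss of Foxl2 alone Nnat was lower without overlap at E16 (-0.64 ± 0.19) and P0 (-0.63 ± 0.19). Neither change passed (adjusted p = 0.20 and 0.16). At E13 (0.25) and in Wnt4-null ovaries (0.06) its change was positive and not called. The tests of whether the effect of Foxl2 differed between P0 and E13, or between mutant and wild-type backgrounds, called 0 members each, with 7, 6 and 1 under an unadjusted p of 0.05 for P0 against E13, Wnt4-null and Kit mutant, and 0.324%, 0.379% and 0.022% of all genes called. The Kit and Wnt4 single mutants were already Foxl2+/-, as were the E13 controls by their label. Stage or background therefore cannot be told apart from the Foxl2 genotype of the reference.

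Kcnq1, a voltage-gated potassium channel expressed from the maternal allele in the fetus, had arrays of Foxl2 nulls on opposite sides of the controls by stage. At E13 it read 0.360, 0.260 and 0.387 in controls and 0.207, 0.242 and 0.235 in nulls. At P0 it read 0.444, 0.620 and 0.559 in wild-type and 1.16, 1.12 and 1.23 in null ovaries. Neither pair overlapped and neither change passed, at -0.52 ± 0.34 and 1.11 ± 0.34 (adjusted p = 0.42 and 0.17), nor did their difference of 1.63 ± 0.48 (adjusted p = 0.13). The E13 controls were Foxl2+/- by their label, so stage and control genotype cannot be told apart here.

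Loss of Wnt4 raised more of the members at P0 than it lowered. Of the 37 members 12 rose and 2 fell, against 7.07% and 9.87% of all genes, and the median change was 0.36 where that of all genes was -0.03. The 8 with the largest rises were Nap1l5 (1.80), Dlk1 (1.58), Dcn (1.53), Magel2 (1.20), Slc38a4 (1.01), Meg3 (0.84), Grb10 (0.80) and Sgce (0.70), followed by Plagl1 (0.67) and 3 others at 0.34 to 0.66. At E15 Dlk1 and Dcn rose, 2 of 37 against 1.5% of all genes that rose and 2.1% called. At E15 23 members were without overlap between 2 and 2 arrays, against 44.5% of all genes, and at P0 16, against 33.7%. Stromal markers were also higher in the Wnt4-null ovaries of P0 (4 of 7 rose, summed signal 95.9 to 102 against 49.5 to 80.1), as were steroidogenic ones (4 of 5, 9.77 to 19.9 against 2.41 to 3.25), while germ cell and oocyte markers were lower (5 of 7 and 5 of 6 fell). The adrenal cortex markers Cyp21a1 (6.16) and Cyp11b1 (4.65) and the Sertoli cell markers Dhh (4.92) and Cst9 (3.26) rose at P0 as well. Among markers of fetal ovary supporting cells, Foxl2 (-1.55), Wnt4 (-1.36), Irx3 (-1.35), Fst (-1.07) and Rspo1 (-0.76) fell. Of these, Wnt4 was itself deleted, and 1 allele of Foxl2 was null. At E15 the stromal sum was 66.3 to 83.9 against 48.5 to 50.4. The part of these cells in the changes was not tested.

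Dlk1, a membrane protein related to Notch ligands, and Meg3, a long noncoding RNA, lie in 1 cluster and are read from opposite parental alleles. Dlk1 read 7.57, 7.01 and 7.32 in P0 Wnt4-null ovaries and 3.31, 1.83 and 2.40 in wild-type ovaries (1.58 ± 0.21, adjusted p = 2.1e-06). At E15 it read 3.79 and 2.77 against 1.17 and 1.26 (1.40 ± 0.26, adjusted p = 0.0017), where leaving out the first Wnt4-null array ended the call (1.18, adjusted p = 0.092). A group of 2 arrays is then 1 array, assumed to vary like the other groups, here and below. Dlk1 was thus above its control at both stages, without overlap. Meg3 read 14.3, 14.8 and 15.8 against 8.64, 7.83 and 8.58 at P0 (0.84 ± 0.16, adjusted p = 0.00025) and 12.4 and 9.89 against 7.70 and 6.45 at E15 (0.65 ± 0.20, adjusted p = 0.082). Of 10 further Meg3 probe sets all 10 had the same sign at P0, and 5 of them were called.

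Both genes were also above wild-type ovaries in Kit mutant ovaries and P0 testes. In Kit mutant ovaries Dlk1 read 4.41, 3.94 and 4.56 and Meg3 22.3, 19.4 and 18.1, which was 0.81 ± 0.21 and 1.25 ± 0.16 above wild-type ovaries (adjusted p = 0.0046 and 3.0e-07). Without the second P0 wild-type array the Dlk1 value was 0.61 (adjusted p = 0.062). In P0 testes Dlk1 read 4.13, 4.74 and 5.21 and Meg3 15.7 to 21.3. Foxl2 loss did not pass the test for either at any stage. Over the 15 group means the 2 genes correlated at 0.83, a description over values read on the same arrays.

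**Figure D3:**
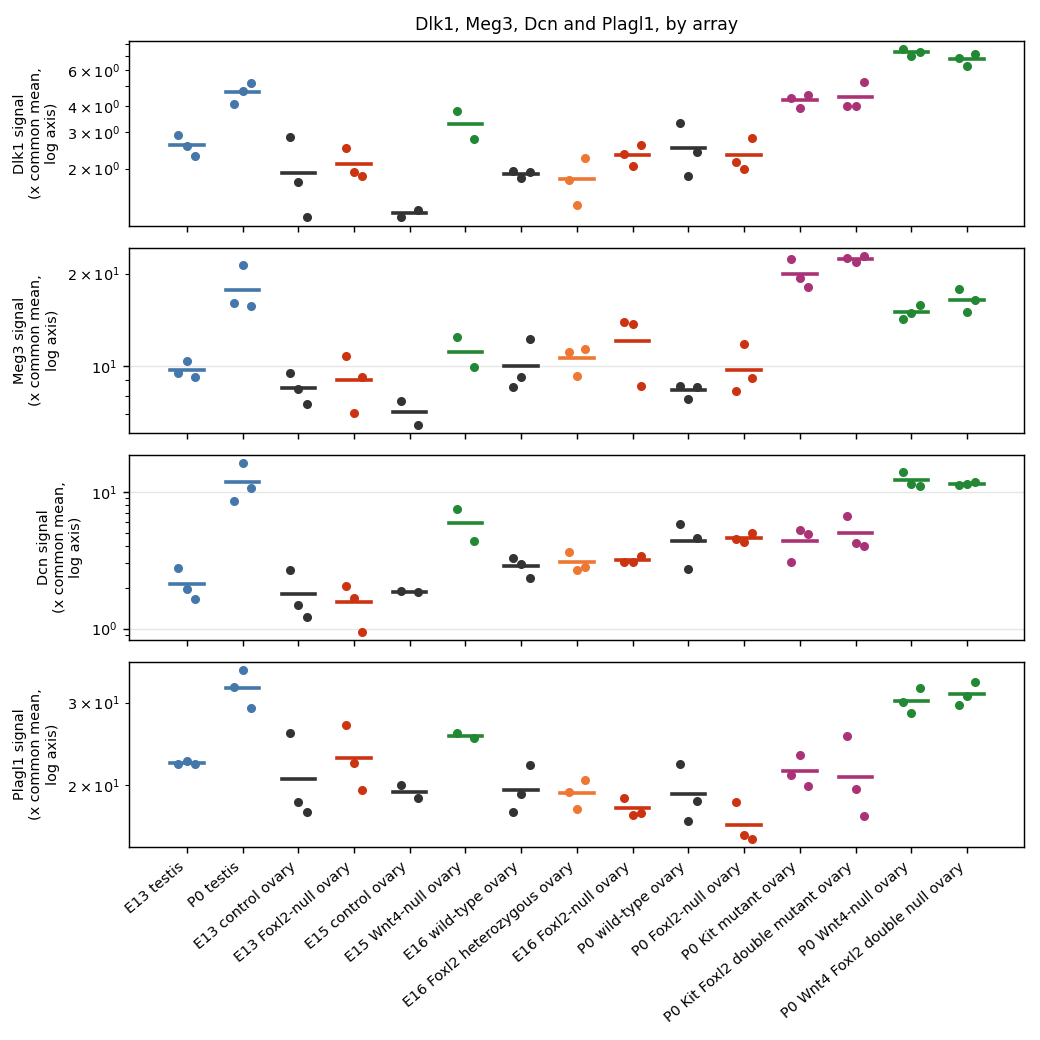
Signal of Dlk1, Meg3, Dcn and Plagl1 on each array (points) with group means (lines), as multiples of the common array mean on log axes. Dlk1 sat highest in the P0 ovaries without Wnt4, at 7.01 to 7.57 in the Wnt4 single nulls, and Meg3 had its highest group means in the 2 groups of Kit mutant ovaries, at 18.1 to 22.8.

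Dcn, the matrix proteoglycan decorin, whose imprint is known from the placenta, read 14.0, 11.4 and 11.1 in P0 Wnt4-null ovaries against 5.82, 2.75 and 4.59 (1.53 ± 0.28, adjusted p = 0.00016). At E15 it read 7.51 and 4.37 against 1.87 and 1.85 (1.62 ± 0.34, adjusted p = 0.0066), without a call when the first Wnt4-null array was left out (1.23, adjusted p = 0.25) or the second control array (1.61, adjusted p = 0.069). Nap1l5, a nucleosome assembly protein-like retrogene, read 0.391, 0.424 and 0.367 in P0 Wnt4-null ovaries and 0.111, 0.106 and 0.0998 in wild-type ovaries. With Foxl2 also lost it was 0.158, 0.111 and 0.149, without overlap, a change of -1.45 ± 0.45 that did not pass (adjusted p = 0.17). Nap1l5 stayed at or under 0.304 on all arrays outside the Wnt4 single nulls of P0.

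Plagl1, a zinc finger factor that regulates other imprinted genes, read 30.2, 28.5 and 32.2 in P0 Wnt4-null ovaries against 22.2, 16.7 and 18.5, a rise of 0.67 ± 0.13 (adjusted p = 0.00028). Magel2, a MAGE family protein of the Prader-Willi domain, rose by 1.20 ± 0.27 at P0 (adjusted p = 0.0021). At E15 both Wnt4-null arrays of Magel2, 0.305 and 0.316, were below the controls, 0.327 and 0.406. Without the second wild-type array Sgce (0.51, adjusted p = 0.16), Slc38a4 (0.78, adjusted p = 0.053), Cd81 (0.22, adjusted p = 0.26) and Ascl2 lost the call at P0, as did Sgce without the first Wnt4-null array (0.52, adjusted p = 0.15) and Cd81 without any of 3 other arrays (0.31 to 0.33), Peg10 was among those gained, and 12 members were called.

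Kcnq1 had the largest fall of the members with loss of Wnt4 at P0. It read 0.0481, 0.0291 and 0.114 in Wnt4-null ovaries against 0.444, 0.620 and 0.559 in wild-type ovaries (-3.06 ± 0.34, adjusted p = 4.1e-08). In Wnt4 Foxl2 double nulls it was 0.0390, 0.0699 and 0.0333, where P0 testes read 0.0286 to 0.0489. At E15 the Wnt4-null arrays read 0.0924 and 0.0936 against 0.222 and 0.151 (-0.91 ± 0.41, adjusted p = 0.35), and the P0 change exceeded the E15 change by 2.15 ± 0.53 (adjusted p = 0.031), a test added after the values were seen that called 1.91% of all genes. The stages also differed in strains and in the Foxl2 allele, which cannot be told apart from age. Ascl2, a transcription factor of trophoblast that was dim on the array, read 0.0509, 0.0384 and 0.0367 against 0.118, 0.287 and 0.198 (-1.95 ± 0.52, adjusted p = 0.0091), and its call was lost without the second wild-type array (-1.66, adjusted p = 0.075).

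Kcnq1, Cdkn1c and Phlda2 share a cluster in which the maternal allele is read, and all 3 were lower in testes than in ovaries at E13. These were the 3 members called there, all down, against 8.14% of all genes called, 3.3% that rose and 4.84% that fell. Without overlap were 7 members, against 28.2% of all genes. Other members of the cluster, Ascl2 (0.06), Cd81 (0.04), Tssc4 (-0.10) and Slc22a18 (-0.71), were not called. Phlda2, which restrains placental growth, read 1.01, 1.34 and 2.08 in E13 control ovaries and 1.42, 1.92 and 1.74 in E13 Foxl2-null ovaries. On all 37 arrays of the other groups it was at or under 0.150, with E13 testes at 0.000406, 4.64e-06 and 0.00695. The change in testes was -6.88 ± 0.61 (adjusted p = 1.4e-10), and since the testis values lie under the 0.01 added before the log, its size depends on that constant, at -4.81 with 0.05 added. From E13 to E16 Phlda2 fell by 6.54 ± 0.61 in the ovary (adjusted p = 1.5e-08), with a change of -4.67 where 0.05 was added.

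Cdkn1c, the cell cycle inhibitor p57, read 3.94, 3.12 and 3.32 in E13 testes against 13.2, 8.51 and 8.51 in ovaries (-1.51 ± 0.25, adjusted p = 5.6e-05). At P0 it read 1.20, 4.41 and 2.17 against 6.02, 3.81 and 3.99, which overlapped (-1.0 ± 0.25, adjusted p = 0.003), and the call was lost without the first testis array (-0.54, adjusted p = 0.087). Kcnq1 read 0.0157, 0.00960 and 0.000455 in E13 testes (-4.29 ± 0.34, adjusted p = 5.0e-12, and -2.71 with 0.05 added) and fell by 3.43 ± 0.34 in P0 testes (adjusted p = 9.3e-10). Markers of the mesonephric duct, summed over 4 genes, read 4.41 to 6.09 in E13 ovaries and 1.60 to 1.83 in E13 testes, and 3.86 to 5.94 in E16 wild-type ovaries, where Phlda2 was at most 0.0257. Their part in the sex difference was not tested.

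**Figure D4:**
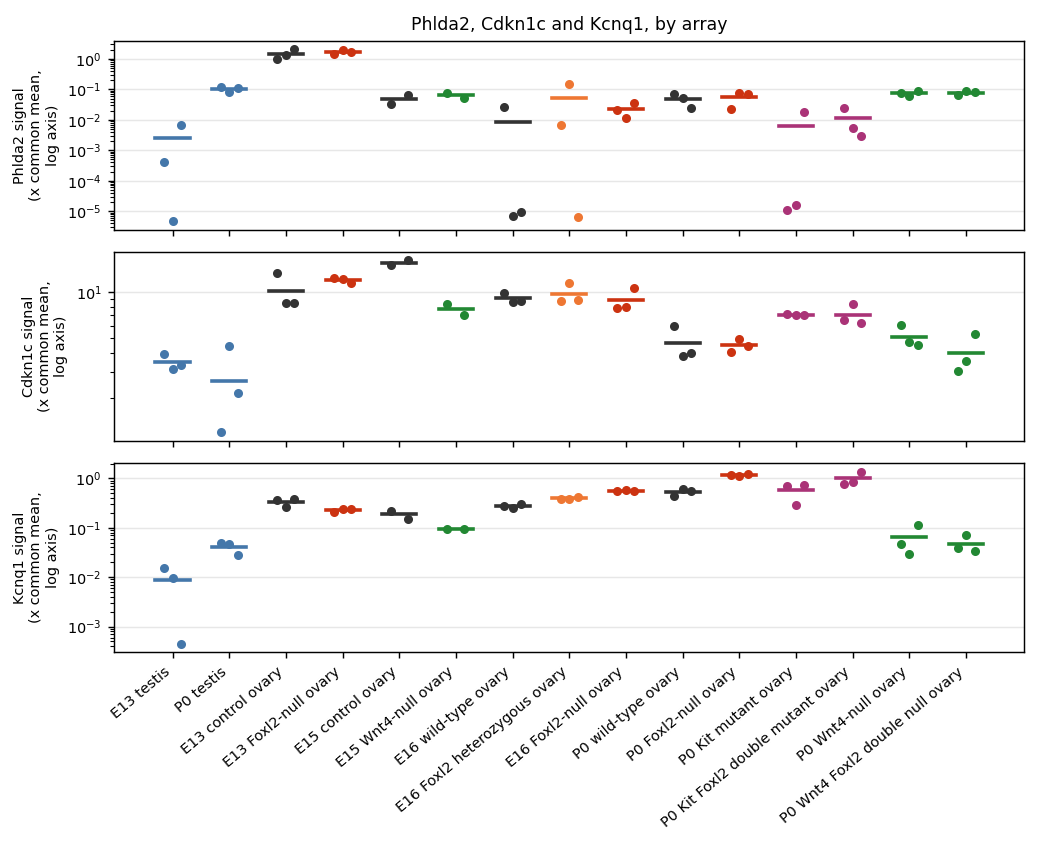
Signal of Phlda2, Cdkn1c and Kcnq1 on each array (points) with group means (lines), as multiples of the common array mean on log axes. Phlda2 was at 1.01 to 2.08 on the 6 arrays of E13 ovaries and at most 0.150 elsewhere, and values under 0.01 have no reliable order. Kcnq1 was at most 0.114 in testes and Wnt4-null ovaries and at least 0.151 in all other ovaries.

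By P0 the sex difference had another makeup. In testes, which were Wnt4-null, against wild-type ovaries 8 members rose and 3 fell, where 12.2% and 16.7% of all genes did, 28.9% in all, and 17 members were without overlap, against 41.9% of all genes. Dcn (1.45), Ppp1r9a (1.13), Meg3 (1.07), Dlk1 (0.93), Plagl1 (0.76), Grb10 (0.60), Gnas (0.52) and Ndn (0.50) rose, and Kcnq1, Cdkn1c and Igf2r (-0.36) fell. This comparison shares its wild-type arrays with that of Wnt4 loss at P0. Ppp1r9a read 6.17, 3.51 and 5.97 in testes against 2.54, 1.71 and 2.84 in ovaries, while Wnt4-null ovaries read 2.60, 2.42 and 1.83. Stromal markers rose in 6 of 7 (99.0 to 129 against 49.5 to 80.1). With each array centred on its median 6 members rose and 5 fell. Without the second P0 wild-type array Gnas (0.42, adjusted p = 0.060), Grb10 (0.46, adjusted p = 0.059) and Ndn (0.37, adjusted p = 0.060) lost the call, as did Igf2r without any of 3 arrays (-0.37 to -0.21).

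The change of the sex difference with stage, tested after the values were seen, called 6 members where 8.83% of all genes were called. The P0 testes were Wnt4-null, so stage and Wnt4 genotype cannot be told apart here, and Meg3, Plagl1, Ndn and Magel2 also rose in Wnt4-null ovaries of P0 (0.84, 0.67, 0.57 and 1.20). Phlda2 (7.88 ± 0.86), Magel2 (1.26 ± 0.39), Ppp1r9a (0.93 ± 0.28), Meg3 (0.87 ± 0.23), Ndn (0.77 ± 0.18) and Plagl1 (0.62 ± 0.18) were relatively higher in testes at P0 than at E13. The size for Phlda2 depends on the constant added before the log, since its E13 testis values lie under it.

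Kit mutant ovaries had low germ cell markers and higher markers of supporting cells than P0 wild-type ovaries. The 6 markers of fetal ovary supporting cells summed to 43.9 to 54.0 against 29.5 to 33.4, with 3 of 6 up, and 2 of 5 rose among each of the endothelial, smooth muscle and Sertoli cell markers. Of 3 adrenal cortex markers 2 rose, Cyp11b1 (2.20) and Cyp21a1 (1.51). Of 5 steroidogenic markers 0 rose and 1 fell, Cyp11a1 (-2.17). The part of these cells in the following changes was not tested. Of the 37 members 10 rose and 1 fell, against 17.3% and 13.3% of all genes, and the median change of 0.27 was close to that of all genes, 0.23. With each array centred on its median 5 members rose and 4 fell, and the share of all called genes that rose went from 56.5% to 25.2% (43.9% after quantile normalization). Without the second P0 wild-type array 5 members were called, which were Impact, Slc22a18, Magel2, Peg12 and Meg3.

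Impact, an inhibitor of the kinase Gcn2, read 1.40, 1.11 and 1.21 in Kit mutants against 0.283, 0.404 and 0.458 in wild-type ovaries (1.70 ± 0.27, adjusted p = 9.5e-06). It was also high, at 1.94, 1.07 and 1.33, in Kit Foxl2 double mutants, and at most 1.08 on all arrays outside these groups. Of 2 other Impact probe sets 1 had the same sign and neither was called. Magel2 read 0.384, 0.265 and 0.327 against 0.155, 0.0751 and 0.120 (1.44 ± 0.27, adjusted p = 0.00015), and its neighbour Peg12, a Frat family gene, 0.584, 0.555 and 0.471 against 0.229, 0.212 and 0.191 (1.30 ± 0.25, adjusted p = 0.00021). In E16 wild-type ovaries Magel2 was 0.395 to 0.428 and Peg12 0.347 to 0.482.

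Slc22a18, a transporter of the Kcnq1 cluster, rose by 1.57 ± 0.38 (adjusted p = 0.0021) at dim signals of 0.106, 0.146 and 0.0845 against 0.0562, 0.0288 and 0.0156. Peg10 (1.07 ± 0.34), Zim1 (0.65 ± 0.22) and Ppp1r9a (0.57 ± 0.20) also passed, with overlapping arrays, and lost the call without the second wild-type array (0.37, 0.43 and 0.35). Without the second Kit mutant array they were 0.85, 0.46 and 0.48, and without the first 0.68 for Zim1 and 0.48 for Ppp1r9a, again with no call. All 4 further Ppp1r9a probe sets rose and were called with the Kit mutation (0.99 to 1.65), and were not recomputed without an array. Phlda2 fell by 1.99 ± 0.61 (adjusted p = 0.015) between signals that were low in both groups, 1.1e-05 to 0.0187 against 0.0244 to 0.0723, a call lost when any of 4 of the 6 arrays was left out (-1.90 to -1.71). The Snurf/Snrpn probe set moved the other way from Magel2 and Peg12 of the same domain, at 1.50, 1.63 and 1.45 against 2.58, 2.85 and 3.49 (-0.95 ± 0.18, adjusted p = 0.00015).

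The Snurf/Snrpn probe set was lower also in other gonads with lower germ cell markers. It fell in P0 Wnt4-null ovaries (-0.67 ± 0.18, adjusted p = 0.0093) and P0 testes (-1.14 ± 0.18, adjusted p = 8.9e-06), and rose from E16 to P0 in the ovary (1.18 ± 0.18, adjusted p = 1.1e-05) after a fall from E13 to E16 (-0.98 ± 0.18, adjusted p = 0.00052). The summed germ cell markers read 17.6 to 32.7 in E13 control, 15.4 to 20.1 in E16 and 39.1 to 70.1 in P0 wild-type ovaries. In Kit Foxl2 double mutants the probe set read 2.69, 2.13 and 2.13 with germ cell markers at 0.573 to 1.38, so it was not lowest where these markers were lowest. The part of germ cells was not tested. Only this probe set, the brightest of 6 that Snrpn shares with other genes, was read. Snrpn's own dim probe set had the same signs but no call with the Kit mutation (-0.72, adjusted p = 0.062) and Wnt4 loss at P0 (-0.29, adjusted p = 0.63). The same held in P0 testes (-0.58, adjusted p = 0.14).

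Set side by side, Wnt4-null and Kit mutant ovaries of P0, both Foxl2+/-, differed in 15 members, where 23.9% of all genes were called in this comparison added after the values were seen. Higher in Wnt4-null ovaries were Nap1l5 (1.49), Dcn (1.49), Slc38a4 (1.11), Gnas (0.81), Dlk1 (0.76), Grb10 (0.52), Plagl1 (0.50) and Ndn (0.40), and also Phlda2, whose size (2.55) depends on the added constant because 2 of the Kit mutant arrays read 1.1e-05 and 1.6e-05. Higher in Kit mutants were Kcnq1 (-3.06), Peg10 (-1.85), Impact (-1.19), Slc22a18 (-1.16), Nnat (-0.62) and Ppp1r9a (-0.60).

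From E16 to P0 most of the called members fell in the wild-type ovary. Of the 37 members 12 fell and 3 rose, against 20.7% and 10.2% of all genes, 30.9% in all, and the medians were -0.35 and -0.27. The split depended on the scaling. With each array centred on its median 10 members rose and 3 fell, and the share of all called genes that rose was 77.6% in place of 33.1%. After quantile normalization 3 rose and 11 fell, with 55.4% of all called genes rising. Over all these scalings Magel2 (-1.80 ± 0.27 as deposited), Peg10 (-1.40 ± 0.34) and Zim1 (-1.12 ± 0.22) fell. The others with falls were Impact (-1.08), Cdkn1c (-1.0), Usp29 (-0.88), Peg12 (-0.87), Nnat (-0.78), Grb10 (-0.61), Mest (-0.61), Peg3 (-0.48) and Igf2r (-0.46), all of which lost the call under median centring. Without the second P0 wild-type array the Peg10 change was -0.69 (adjusted p = 0.070), and Igf2r, Mest, Phlda2 and Kcnq1 lost the call as well. Mest lost it also without the third P0 array (-0.50) and Peg12 without the first E16 array (-0.72).

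Magel2 had arrays of 0.428, 0.422 and 0.395 at E16 and 0.155, 0.0751 and 0.120 at P0 (adjusted p = 1.1e-05). The zinc finger gene Peg3 read 21.7, 20.8 and 23.2 at E16 and 20.2, 13.1 and 14.7 at P0 (adjusted p = 0.0017). Its neighbour Zim1, read from the other parental allele, went from 2.18, 2.01 and 2.31 to 1.26, 0.726 and 1.06 (adjusted p = 0.00026). Usp29, whose promoter window overlaps that of Peg3, went from 2.88, 1.90 and 1.83 to 1.55, 1.01 and 1.01. In P0 Foxl2 nulls against wild-type ovaries the change was 0.43 ± 0.11 for Peg3 (adjusted p = 0.065), 0.66 ± 0.22 for Zim1 (adjusted p = 0.25) and 0.46 ± 0.23 for Usp29 (adjusted p = 0.70), and none passed. Peg3 and Zim1 had the highest correlation of any pair at a shared locus, 0.91 over the 15 group means.

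**Figure D5:**
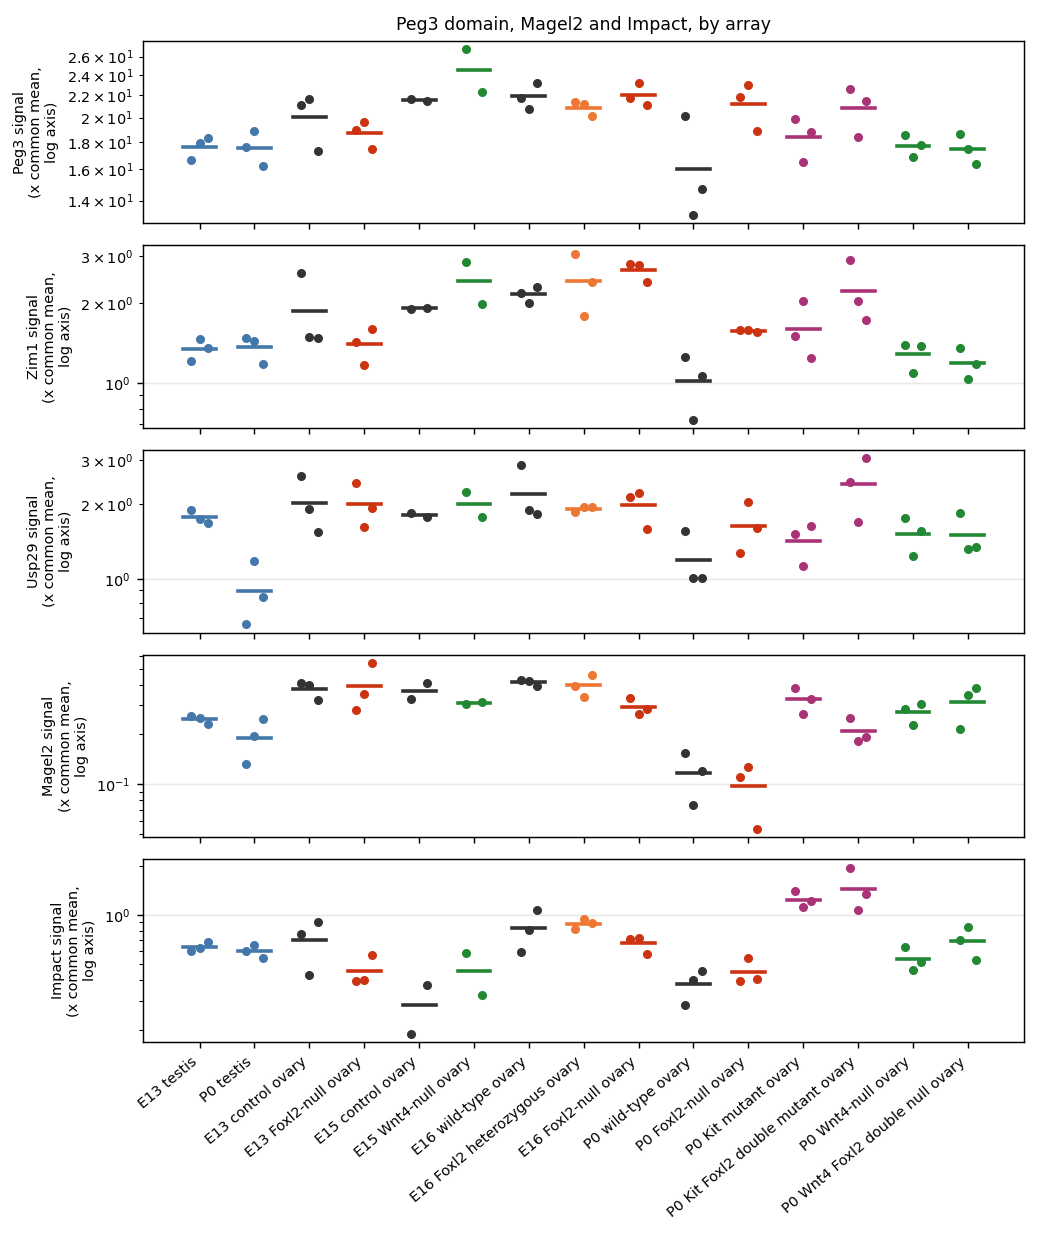
Signal of Peg3, Zim1, Usp29, Magel2 and Impact on each array (points) with group means (lines), as multiples of the common array mean on log axes. The 3 P0 wild-type arrays of Magel2 (0.0751 to 0.155) sit below all 3 of E16 (0.395 to 0.428), and Impact was highest in the ovaries of Kit mutants, at 1.07 to 1.94.

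Of the members that rose from E16 to P0, Phlda2 (1.88 ± 0.61, adjusted p = 0.019) did so between low signals and lost the call when any of 4 of the 6 arrays was left out, and Kcnq1 (0.95 ± 0.34, adjusted p = 0.031) and Gnas (0.42 ± 0.14, adjusted p = 0.025) lost the call when any of 5 and of 4 of the 6 arrays was left out. From E13 to E16 the ovary had 3 falls and 1 rise among the members, against 3.94% and 5.09% of all genes and 9.02% in all, and 9 members were without overlap, against 31.9% of all genes. Next to Phlda2, Asb4, a gene of the Peg10 locus, fell from 1.72, 0.977 and 1.16 to 0.364, 0.255 and 0.278 (-2.04 ± 0.45, adjusted p = 0.003). The amino acid transporter Slc38a4 fell by 0.86 ± 0.24 (adjusted p = 0.020) and Igf2r rose by 0.42 ± 0.13 (adjusted p = 0.042), calls that were lost when any of 3 and of 4 of the 6 arrays was left out. With median centring the split of members was 0 up and 5 down, with 19% of all called genes rising in place of 56.4%.

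In testes 10 members rose and 7 fell between E13 and P0, against 9.06% and 13.8% of all genes, 22.8% in all, with the P0 testes being Wnt4-null. Asb4 had the largest fall, from 2.59, 2.23 and 1.81 to 0.172, 0.383 and 0.331 (-2.92 ± 0.45, adjusted p = 8.9e-06). Nnat (-1.20), Snrpn (-1.14), Usp29 (-1.02), Peg12 (-0.99), Mest (-0.95) and Igf2r (-0.36) also fell, of which Igf2r lost the call without any of 4 of the 6 arrays (-0.38 to -0.21) and Peg12 without the first P0 array (-0.74). Phlda2 rose from values under the added constant to 0.117, 0.0805 and 0.114, by 3.22 ± 0.61 with 0.01 added and 1.55 with 0.05. Dcn rose from 2.79, 1.94 and 1.65 to 8.64, 16.2 and 10.8 (2.46 ± 0.28, adjusted p = 4.6e-08). Kcnq1 (1.54), Sgce (1.13), Ppp1r9a (1.09), Ndn (0.93), Dlk1 (0.85), Meg3 (0.85) and Plagl1 (0.53) followed, with 1 more at 0.79. Nnat, Usp29, Peg12, Mest and Igf2r had called falls towards birth in both gonads, of which those in the ovary were lost under median centring. The spans differed, from E13 to P0 in testes and from E16 to P0 in ovaries. In the ovary Igf2r had risen by 0.42 ± 0.13 from E13 to E16 before it fell.

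Igf2 itself moved little. This fetal growth factor stayed within 11.9 to 21.2 on all arrays and was called in no comparison, with changes from -0.17 ± 0.13 in E16 Foxl2 heterozygotes to 0.28 ± 0.13 in P0 testes. The Mir675/H19 probe set, its neighbour on the other parental allele, was lower in testes, at 14.5, 13.2 and 11.3 against 22.8, 15.3 and 18.5 in ovaries at E13 (-0.52 ± 0.12, adjusted p = 0.0056) and by 0.59 ± 0.12 at P0 (adjusted p = 0.00046). It was also lower in E15 Wnt4-null ovaries, at 16.5 and 17.7 against 25.4 and 25.9 (-0.58 ± 0.15, adjusted p = 0.036). At P0 loss of Wnt4 changed it by -0.15 ± 0.12 (adjusted p = 0.54). Grb10, an adaptor that restrains insulin and Igf receptor signalling, read 12.5, 13.9 and 15.3 in P0 Wnt4-null ovaries against 10.2, 6.51 and 7.57 (0.80 ± 0.16, adjusted p = 0.00043). Igf2r, which clears Igf2, was called in 4 comparisons, none of them a mutant ovary against its control.

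Of 17 measured partners in Igf signalling 7 rose and 0 fell with loss of Wnt4 at P0, against 7.07% and 9.87% of all genes, with Igf1 (2.33 ± 0.23, adjusted p = 5.8e-09), the binding protein Igfbp3 (1.52 ± 0.20, adjusted p = 1.2e-06) and the protease Htra1 (1.65 ± 0.24, adjusted p = 5.0e-06) in front. With the Kit mutation 3 rose and 2 fell, against 17.3% and 13.3% of all genes, led by a fall of the RNA-binding protein Igf2bp3 (-0.82 ± 0.15). With loss of Foxl2 at E16 1 rose, Igfbp6 (1.09 ± 0.25, adjusted p = 0.031).

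Of 21 measured genes that set, protect or remove the imprints, 0 were called by limma with loss of Foxl2 at E13, E16 or P0, with 4, 1 and 0 under an unadjusted p of 0.05. With loss of Wnt4 at P0 6 fell and 0 rose, where 9.87% and 7.07% of all genes did, and with the Kit mutation 7 fell and 1 rose, where 13.3% and 17.3% did. The histone demethylase Kdm1b fell in both (-1.95 ± 0.34 and -2.58 ± 0.34). So did Zfp57, a zinc finger protein that protects imprints (-1.28 ± 0.23 and -1.15 ± 0.23). Uhrf1, which brings Dnmt1 to replicating DNA, fell in both as well (-0.82 ± 0.22 and -1.78 ± 0.22). Dppa3, which is also on the germ cell list, fell by 3.53 ± 0.69 with the Kit mutation. It fell by a further 3.85 ± 0.69 from Kit mutants to Kit Foxl2 double mutants. Germ cell and oocyte markers fell in the same ovaries, 7 of 7 and 6 of 6 with the Kit mutation, and their part was not tested. The oocyte markers, summed over 6 genes, read 0.870, 1.61 and 21.7 on the Kit mutant arrays, the last within the wild-type range of 20.2 to 40.8.

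Of 29 further imprinted genes measured, 6 rose and 4 fell with loss of Wnt4 at P0, where 7.07% and 9.87% of all genes did, and 9 rose and 4 fell with the Kit mutation, where 17.3% and 13.3% did. Mirg and Rian, noncoding RNAs downstream of Meg3 in its cluster, rose in both, by 1.74 ± 0.29 and 0.88 ± 0.17 with loss of Wnt4 and by 1.89 ± 0.29 and 1.16 ± 0.17 with the Kit mutation. From E16 to P0 they fell by 1.48 ± 0.29 and 1.17 ± 0.17, where Meg3 changed by -0.24 ± 0.16 (adjusted p = 0.25). Casd1, a neighbour of Sgce, rose with the Kit mutation (1.29 ± 0.19) and fell when Foxl2 was lost in addition (-0.85 ± 0.19, adjusted p = 0.022), as Peg10 did. With loss of Foxl2 alone 2 fell at E13, Gatm (-1.41 ± 0.33) and Kcnq1ot1 (-1.02 ± 0.24), the noncoding RNA of the Kcnq1 cluster, and 1 at P0, Osbpl5 (-0.88 ± 0.21).

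Members of a locus did not move together as a rule. Over the 15 group means 56 pairs of members at the same locus had a median correlation of 0.11, and 610 pairs at different loci of 0.06. The highest were Ndn with Gnas (0.92), at different loci, and Peg3 with Zim1. These correlations are descriptions over groups that share stages and genotypes. Of the members 20 had further probe sets of their own, and in no called comparison was one of these called in the opposite direction.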

How the data were processed

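The authors deposited plier intensities, 1 value per probe set and array, scaled to a common mean, and the submitters' processing notes name GCOS 1.3. The absolute scale and scan batches were not given in the sources used here. Intensities were divided by the common mean, 1% of it was added and log2 was taken. One limma 3.58.1 fit (R 4.3.3) of 15 group means over 43 arrays, with Benjamini-Hochberg adjustment over 45007 non-control probe sets, gave every test. The code was tested on simulated data. The study's own test program was not used here. Each gene was read on its brightest probe set with 1 symbol. The members and lists were chosen with earlier results of these data known.

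Peg10 was named in every comparison, called members by size up to 8 per direction, 10 core imprinted genes whether called or not, and up to 3 genes of each accompanying list by adjusted p. Markers are described by their summed signal. Replicates are single mice, and their small number limits the precision; replicates correlated at 0.922 to 0.982 and none were identical. Equal replicate numbers paired the E13 control and Foxl2-null arrays (correlation of deviations 0.132 to 0.158) and no other groups.

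Alternatives were other pseudocounts, quantile or median scaling, all probe sets of a gene, a dim-signal filter, the compared groups alone, a replicate block and leaving out each array.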

Additional observations from a re-analysis of the deposited data

Results flagged for a closer look

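The sex difference (testis minus ovary) changed between E13 and P0, by a test of the difference itself, in 6 members: Phlda2 by 7.88 ± 0.86 on the log2 scale (adjusted p = 1.2e-07), Meg3 by 0.87 ± 0.23 (adjusted p = 0.014), Plagl1 by 0.62 ± 0.18 (adjusted p = 0.030), Ndn by 0.77 ± 0.18 (adjusted p = 0.0067), Magel2 by 1.26 ± 0.39 (adjusted p = 0.042) and Ppp1r9a by 0.93 ± 0.28 (adjusted p = 0.036). The P0 testes were Wnt4-null and the E13 testes were not, so stage and genotype cannot be told apart, and Meg3, Plagl1, Ndn and Magel2 also rose with Wnt4 loss in P0 ovaries. The Phlda2 value depends on the constant added before the log, since its E13 testis signals lie under that constant. The effect of Wnt4 loss on Kcnq1 at P0 differed from that at E15 by -2.15 ± 0.53 (adjusted p = 0.031).

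In other cases all arrays of a mutant group lay on one side of its control in one comparison and on the other side in another. The difference between the changes passed no test for Kcnq1 under Foxl2 loss at P0 minus E13 (1.63 ± 0.48, adjusted p = 0.13) and Magel2 under Wnt4 loss at P0 minus E15 (1.42 ± 0.43, adjusted p = 0.093). It was not tested for the rest. Peg10 differed by 3.01 between Foxl2 loss in Wnt4-null ovaries and at E16, and by -2.05 between Foxl2 loss in Kit mutant and in Wnt4-null ovaries. Ppp1r9a differed by 1.15 and 0.97 between Foxl2 loss in Wnt4-null ovaries and at E13 and E16, and Asb4 by 0.98 between Foxl2 loss in Wnt4-null ovaries and at E16. Kcnq1 differed by 1.55 between Foxl2 loss at E16 and at E13, and by 1.37 between Foxl2 loss in Kit mutant ovaries and at E13. The reference of Foxl2 loss was wild-type at E16, and at P0 without another mutation. It was Foxl2+/- in Kit mutant and Wnt4-null ovaries and, by its label, at E13.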

How the results depend on the processing

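Of 82 calls of single members 40 were kept under every alternative and 42 were lost under at least 1. The number of members called changed by over 1.5 times as follows. For Foxl2 loss in Kit mutants it was 1 with no pseudocount or median centring and 0 with the compared groups alone. For Foxl2 loss at P0 it was 1 with a pseudocount of 5% or a replicate block, for Foxl2 loss in Wnt4-null ovaries 1 with 5% or the compared groups alone, and for Foxl2 loss at P0 minus E13 1 with 5%. The average over stages gave 1 with quantile scaling, median centring or the mean of all probe sets. The E13 sex difference gave 5 with the mean of all probe sets, E16 Foxl2 loss 3 and ovaries from E13 to E16 2 with the compared groups alone. The replicate block changed no other count by as much. The effect of Foxl2 loss on Peg10 in Kit mutants minus wild-type ovaries turned from -0.44 to 0.27 (adjusted p = 0.96) without the second P0 wild-type array, the highest value when an array was left out, with -0.86 the lowest. The causes were not tested.

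Leaving out each array in turn gave, for Foxl2 loss, 0 to 2 members called in E13 ovaries, 1 to 1 in E16 ovaries, 0 to 2 in P0 ovaries, 0 to 1 in Kit mutants, 0 to 0 in Wnt4-null ovaries, 0 to 0 in heterozygotes and 1 to 3 for the average. It gave 0 to 1, 0 to 1 and 0 to 0 for Foxl2 loss at P0 minus E13, Wnt4-null minus wild-type and Kit mutant minus wild-type. It gave 0 to 3 for Wnt4 loss at E15, 12 to 16 at P0, 5 to 14 for the Kit mutation, 3 to 4 and 9 to 15 for the sex difference at E13 and P0, 2 to 4 and 11 to 16 for ovaries from E13 to E16 and from E16 to P0, and 15 to 18 for testes. Of all called genes 71.7% rose with Wnt4 loss at E15, and 60.1% and 57.7% after quantile and median scaling, where Foxl2 loss at E13 went from 35.4% to 56.7% and 62.1%. Values under 0.01 of the common mean are set by the pseudocount.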
